A study of Mus musculus with 18 samples.

Results

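A group of 8 genes of the interleukin-6 family and its receptors, chosen by name, was followed through TNFα treatment in fibroblasts that differ in their RelA protein: Lif, Il6, Il11, Clcf1, Il23a, Il6st, Lifr and Osmr. All 8 carry a name in the merged assembly, which holds 23212 named genes, and all 8 were among the 12364 genes tested. Of the 8, 4 were assembled in all 18 libraries (Lif, Clcf1, Il6st and Osmr). Il11 was assembled in 15 libraries, Il23a in 12, Il6 in 7 and Lifr in 5. In each of the remaining libraries the gene is listed at 0. No member shared an assembled transcript with a neighbouring gene.

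The cells were immortalized mouse embryonic fibroblasts (MEF) lacking the rela gene (rela-/-), into which mouse RelA, the main activating subunit of NF-κB, had been put back with a retroviral vector. RelA(TA2) carries L449A and F473A in the transactivation region that contacts the TAZ1 domain of the coactivators CBP and p300. RelA(Ser276Ala) carries S276A, which removes a serine whose phosphorylation favours contact with the KIX domain of the same coactivators, and RelA(wt) is the unmutated protein. Each line was sampled unstimulated (0 h) and after 1 h and 2 h of 5 ng/ml TNFα, with 2 libraries for each of the 9 conditions. No untreated library was taken at 1 h or 2 h. In a change from 0 h, TNFα therefore cannot be told apart from elapsed time or handling. The study calls the replicates independent. Whether they came from separate cultures is not given in the sources used here, so p-values measure only the spread between these libraries, which may be technical. The sources also give no number of reconstituted populations or clones, so the mutation and the population that carries it cannot be told apart.

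Cytokines of this family are secreted signals that act on cells by joining receptor chains around the shared chain gp130, the product of Il6st. Interleukin-6 and interleukin-11 bring in 2 gp130 chains through their own binding receptors, whereas leukaemia inhibitory factor (Lif) and cardiotrophin-like cytokine factor 1 (Clcf1) use gp130 together with the receptor Lifr. Osmr pairs with gp130 to bind oncostatin M. The joined chains activate JAK kinases and the transcription factor STAT3. Il23a encodes p19, which belongs to the same structural family but pairs with the p40 chain and signals through a receptor without gp130. In fibroblasts Il6 and Lif are well known as genes that TNF and NF-κB switch on.

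Values are FPKM (fragments per kilobase of transcript, scaled to the mapped fragments of the library) of assembled transcripts, added up per gene. Libraries held an estimated 25.3 to 31.3 M mapped fragments, a number fitted from FPKM, confidence limits and transcript lengths. The number of fragments behind a value was recovered from its FPKM and confidence limit. Among transcripts alone in their locus, with the very smallest values left out, the 1st percentile lay at 10 fragments. A gene listed at 0 may thus still have had fragments too few to assemble. Rela itself had 315 to 366 FPKM in the 6 RelA(TA2) libraries and 174 to 211 FPKM in the 6 RelA(Ser276Ala) libraries, against 156 to 187 FPKM in the 6 RelA(wt) libraries. These are mRNA levels, and the study describes less RelA protein in the RelA(Ser276Ala) line than in the RelA(wt) line. The part of RelA mRNA or protein level in any difference between lines was not tested. All 10 fibroblast markers were among the genes tested, and 8 of them were above 0 in all 18 libraries. Fap is listed at 0 in 10 libraries and Lum in 1. The summed level of the 10 lay between 2822 and 4168 FPKM, and Vim alone had 1634 to 2510 FPKM. Among markers of other cells, Ptprc, Emr1 and Itgam (macrophages), Pecam1 and Tek (endothelium) and Epcam, Cdh1 and Krt18 (epithelium) are listed at 0 in all 18 libraries. Others on the same lists were above 0 in all 18, namely Csf1r (2.38 to 16.1 FPKM), Cd68 (4.23 to 16.9) and Cd14 (4.67 to 9.81) of 7 macrophage markers, Cdh5 (1.12 to 12.3) of 4 endothelial markers and Krt8 (1.85 to 26.0) of 4 epithelial markers. Summed, the macrophage markers had 15.6 to 23.1 FPKM in RelA(TA2) libraries and 18.8 to 38.5 FPKM in RelA(Ser276Ala) libraries, against 20.1 to 37.7 FPKM in RelA(wt) libraries, and their part in the results was not tested.

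RefSeq promoter windows were found for 6 of the 8 genes. The 250 bases before the start site are shown for Il6 and Il11 (build GRCm38.p6), 5′ to 3′ on the strand of the gene, because these windows hold a match to a searched motif and some assembled transcripts began close to their start sites. Within 500 bases of the start began 6 of 8 assembled Il6 transcripts and 8 of 26 of Il11. The Lif window is not shown, since 33 of 34 assembled Lif transcripts began 8834 to 10599 bases downstream of the start it precedes. Capitals mark matches, on either strand, to the 10-base κB consensus bound by NF-κB and to TGANTCA, the site of AP-1. A match is a description of the letters and not a measured binding site. Il6 lies on the plus strand of chromosome 5 (chr5:30012864-30013113), and Il11 on the minus strand of chromosome 7 (chr7:4778142-4778391).
Il6: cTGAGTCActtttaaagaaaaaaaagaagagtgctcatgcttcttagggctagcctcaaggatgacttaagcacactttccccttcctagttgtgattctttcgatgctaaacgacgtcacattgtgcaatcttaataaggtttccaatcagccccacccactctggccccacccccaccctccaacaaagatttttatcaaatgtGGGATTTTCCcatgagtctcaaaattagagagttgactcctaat
Il11: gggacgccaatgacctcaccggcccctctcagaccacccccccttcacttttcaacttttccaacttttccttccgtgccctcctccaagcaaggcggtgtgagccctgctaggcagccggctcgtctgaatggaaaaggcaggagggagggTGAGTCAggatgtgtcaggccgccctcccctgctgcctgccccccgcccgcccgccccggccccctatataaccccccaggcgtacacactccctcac
The Il6 window holds 1 κB match, which begins 44 bases before the start (GGGATTTTCC), and the Il11 window holds none. Among all 32851 promoter windows of this length, 7.25% hold a κB match. An AP-1 match begins 249 bases before the start in Il6 and 98 bases in Il11, and 6.75% of all windows hold one. The other motif searched, the STAT site TTCNNNGAA, is found in neither window and in 7.02% of all windows. The windows of Il6st, Lifr and Osmr hold none of these 3 motifs.

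Lif (mm10, chr11:4257568-4272514, plus strand) rose after TNFα in every line, but the time course differed between lines. In RelA(TA2) cells Lif had 4.90 and 4.56 FPKM at 0 h, 30.1 and 25.8 FPKM at 1 h, and 30.6 and 36.6 FPKM at 2 h. RelA(Ser276Ala) cells had 3.03 and 3.56 FPKM of Lif at 0 h, 20.8 and 19.1 FPKM at 1 h, and 18.1 and 13.8 FPKM at 2 h. In RelA(wt) cells it had 2.78 and 2.99 FPKM at 0 h, 36.0 and 38.1 FPKM at 1 h, and 10.6 and 13.0 FPKM at 2 h. Every treated library stood above both 0 h libraries of its line. These values rest on 271 to 4111 fragments a library.

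**Figure D1:**
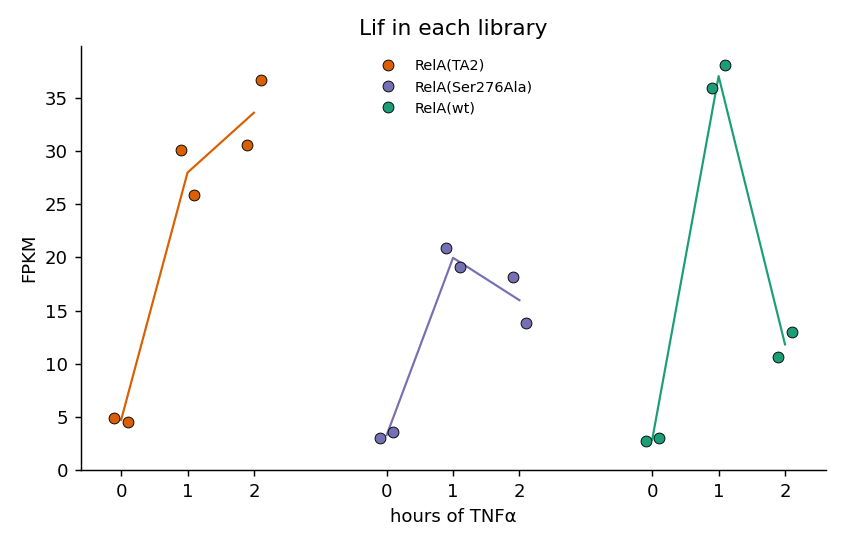
Lif in FPKM (vertical axis) against hours of TNFα (horizontal axis) for the 3 lines, with 1 point per library and a line through the means of the 2 libraries. The RelA(wt) points peak at 1 h (36.0 and 38.1 FPKM), while the RelA(TA2) points at 2 h (30.6 and 36.6 FPKM) stand above every RelA(wt) point at 2 h.

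Against 0 h, Lif rose by 2.44 ± 0.16 (SE) on the log2(FPKM + 0.5) scale at 1 h in RelA(TA2) cells, or 5.43-fold (limma, adjusted p = 1.13e-05). The rise at 1 h was 2.43 ± 0.16 in RelA(Ser276Ala) cells (limma, adjusted p = 1.66e-05) and 3.47 ± 0.16 in RelA(wt) cells, or 11.1-fold (limma, adjusted p = 3.62e-07). The rise at 2 h was 2.70 in RelA(TA2) cells (limma, adjusted p = 5.72e-06), 2.11 in the RelA(Ser276Ala) line (1.16e-04) and 1.86 in the RelA(wt) line (1.88e-04). With the highest transcript alone in place of the summed FPKM, the RelA(wt) rise at 2 h no longer passed (adjusted p = 0.0916).

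Between 1 h and 2 h Lif fell in RelA(wt) cells, by 1.61 ± 0.16 on the log2 scale (3.06-fold, limma, adjusted p = 2.61e-04). Over the same hour the RelA(TA2) change was 0.26 (adjusted p = 0.525) and the RelA(Ser276Ala) change was -0.32 (adjusted p = 0.393), neither past the test. The difference between these changes was then tested itself, a comparison added after the levels had been seen. The change from 1 h to 2 h in RelA(TA2) cells exceeded the RelA(wt) change by 1.87 ± 0.22 (limma, adjusted p = 0.00422), where 0.0971% of all genes passed in this direction. The RelA(Ser276Ala) change exceeded the RelA(wt) change by 1.29 ± 0.22 (limma, adjusted p = 0.0474), where 0.121% of all genes passed. The first kept its call whichever library was left out and missed the threshold with the highest transcript alone (adjusted p = 0.156). The second missed it in 15 of the 18 fits that left out a library (adjusted p of 0.0515 to 0.0834) and under other settings, for example with the replicate block (0.0963).

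At single times, Lif at 2 h in RelA(TA2) cells exceeded the RelA(wt) level by 1.47 ± 0.16 on the log2 scale, or 2.77-fold (limma, adjusted p = 8.17e-04). It also exceeded the RelA(Ser276Ala) level at 2 h, by 1.06 (limma, adjusted p = 0.00503), another comparison added after the levels were seen. At 1 h Lif in RelA(Ser276Ala) cells was below the RelA(wt) level (difference -0.88, 1.84-fold, limma, adjusted p = 0.0145), and the libraries did not overlap. The RelA(TA2) difference from RelA(wt) at 1 h was -0.40 (adjusted p = 0.245). Before TNFα, Lif in RelA(TA2) cells was 0.63 above the RelA(wt) level, which missed the threshold (adjusted p = 0.0590) and passed it on recovered fragments (0.67, adjusted p = 0.00879, with 11.8% of all genes called higher on that scale). The 1 h call in RelA(Ser276Ala) cells was lost without RelA(wt) 1 h replicate 1 (adjusted p = 0.0534), without RelA(wt) 1 h replicate 2 (adjusted p = 0.0750) and without RelA(Ser276Ala) 1 h replicate 2 (adjusted p = 0.0628). With the highest transcript alone, the RelA(TA2) difference at 2 h (adjusted p = 0.0509) and the RelA(Ser276Ala) difference at 1 h (adjusted p = 0.0805) missed it too.

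Il23a (chr10:128296140-128298084, minus strand), the p19 chain of interleukin-23, is listed at 0 in all 6 libraries taken before TNFα and was assembled in all 12 treated ones. In RelA(TA2) cells it had 2.81 and 2.89 FPKM at 1 h and 2.47 and 3.49 FPKM at 2 h. RelA(Ser276Ala) cells had 1.52 and 4.23 FPKM at 1 h and 1.27 and 2.14 FPKM at 2 h. In RelA(wt) cells it had 17.5 and 15.2 FPKM at 1 h and 9.41 and 11.8 FPKM at 2 h. The 4 treated RelA(wt) libraries all lay above the 8 treated mutant libraries. The fragments behind them numbered 79 to 109 in treated RelA(TA2) libraries and 16 to 45 in treated RelA(Ser276Ala) libraries, against 267 to 652 in treated RelA(wt) libraries. The second RelA(Ser276Ala) library at 1 h held 2 short pieces whose FPKM add up, with 37 fragments in all.

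**Figure D2:**
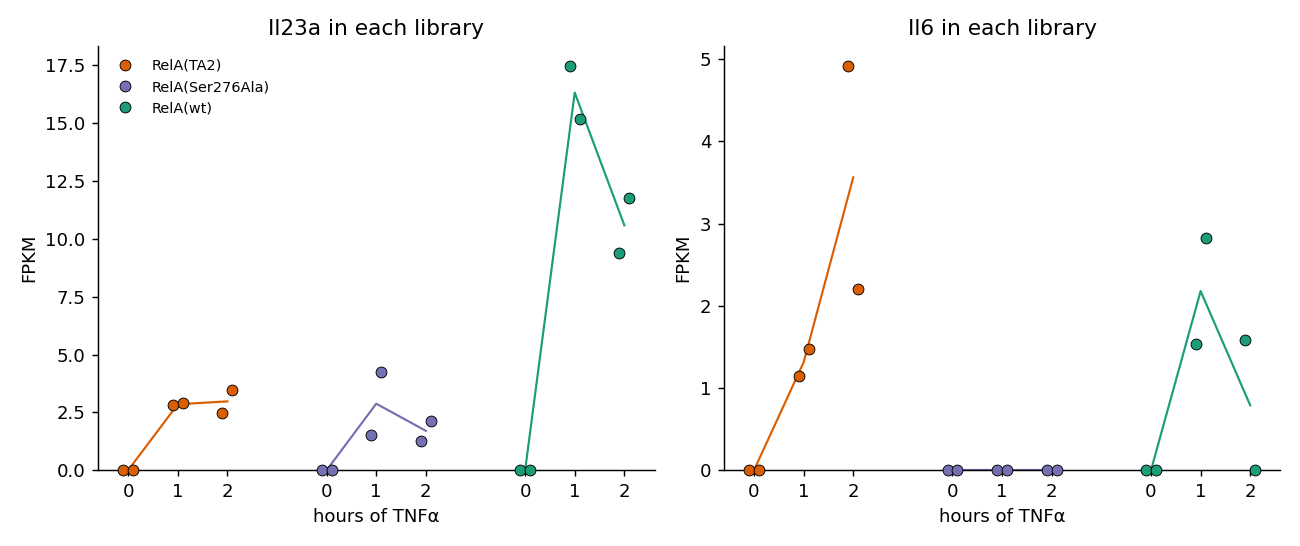
Il23a (left) and Il6 (right) in FPKM against hours of TNFα for the 3 lines, with 1 point per library and a line through the means. Il23a at 1 h lies at 17.5 and 15.2 FPKM in RelA(wt) cells and at 4.23 FPKM or less in both mutant lines, and Il6 is listed at 0 in all 6 RelA(Ser276Ala) libraries.

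Against RelA(wt), Il23a was lower in both mutant lines at both treated times. In RelA(TA2) cells the difference was -2.32 ± 0.35 at 1 h, or 5.01-fold lower (limma, adjusted p = 0.00503), and -1.68 ± 0.35 at 2 h (limma, adjusted p = 0.0298). For RelA(Ser276Ala) cells it was -2.44 ± 0.35 at 1 h, or 5.43-fold lower (limma, adjusted p = 0.00484), and -2.35 ± 0.35 at 2 h (limma, adjusted p = 0.00567). On recovered fragments, scaled to the library, the differences were -2.53 and -1.83 in RelA(TA2) cells and -3.37 and -3.30 in RelA(Ser276Ala) cells. The RelA(TA2) call at 2 h was lost when any of its 4 libraries was left out, with adjusted p of 0.0573 (without RelA(TA2) replicate 2), 0.0761 (without RelA(wt) replicate 1), 0.141 (without RelA(wt) replicate 2) and 0.144 (without RelA(TA2) replicate 1). The rise from 0 h passed at 1 h and 2 h in every line, with limma adjusted p of 0.00199 and 0.00175 in RelA(TA2) cells, 0.00293 and 0.0197 in the RelA(Ser276Ala) line, and 1.29e-05 and 1.20e-04 in the RelA(wt) line. No fold is given for it, because the 0 h libraries are listed at 0 and the fitted difference depends on the 0.5 added. The call at 2 h in RelA(Ser276Ala) cells was lost without RelA(Ser276Ala) 0 h replicate 1 (adjusted p = 0.0647), 0 h replicate 2 (adjusted p = 0.0685) or 2 h replicate 2 (adjusted p = 0.0735), and with 1 added before the logarithm (adjusted p = 0.0638).

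Il6 (chr5:30013161-30019968, plus strand), the cytokine that gives the family its name, stayed near the limit of assembly. It is listed at 0 in all 6 libraries taken before TNFα and in all 6 RelA(Ser276Ala) libraries. In RelA(TA2) cells it had 1.15 and 1.47 FPKM at 1 h and 4.92 and 2.21 FPKM at 2 h, on 23 to 25 fragments a library. The library at 4.92 FPKM held 2 short pieces, of 341 and 417 bases, whose FPKM add up. Fragments did not rise from 1 h (23 and 25) to 2 h (23 and 23). In RelA(wt) cells Il6 had 1.53 and 2.83 FPKM at 1 h, on 12 and 13 fragments, and 1.58 FPKM in 1 of the 2 libraries at 2 h, the other being listed at 0. Il6 was thus assembled in 4 of 4 treated RelA(TA2) libraries and 0 of 4 treated RelA(Ser276Ala) libraries, against 3 of 4 treated RelA(wt) libraries.

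The fit pools spread over all conditions. Conditions in which both libraries list Il6 at 0 show none, so its p-values may be too small. The rise of Il6 at 2 h passed the test in RelA(TA2) cells (limma, adjusted p = 0.0193), but not when only the compared libraries were fitted (limma, adjusted p = 0.231). It no longer passed without RelA(TA2) 2 h replicate 1 (adjusted p = 0.102) or without RelA(TA2) 0 h replicate 2 (adjusted p = 0.0759). At 1 h the RelA(TA2) rise had an adjusted p of 0.167 and the RelA(wt) rise 0.0869 on FPKM. On recovered fragments the RelA(TA2) rise passed at 1 h (limma, adjusted p = 0.0219, with 3.52% of all genes called higher) and at 2 h (adjusted p = 0.0125), and the RelA(wt) rise at 1 h did not (adjusted p = 0.183). No size is given for these rises, whose 0 h libraries are listed at 0. RelA(TA2) cells were also above RelA(Ser276Ala) cells at 2 h (limma, adjusted p = 0.0226, and on fragments 0.0144). On FPKM this was lost when only the compared libraries were fitted (limma, adjusted p = 0.176). It was also lost without RelA(TA2) 2 h replicate 1 or without RelA(Ser276Ala) 2 h replicate 1 or 2. At 1 h this difference passed on fragments (adjusted p = 0.0130) and not on FPKM (0.128). The difference of RelA(Ser276Ala) from RelA(wt) at 1 h had an adjusted p of 0.0557. It passed without RelA(wt) 2 h replicate 1 (adjusted p = 0.0106) or replicate 2 (adjusted p = 0.0101), the pair of libraries of which 1 is listed at 0.

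Clcf1 (chr19:4214392-4222615, plus strand), a ligand of the receptor for ciliary neurotrophic factor, was low at 1 h and high at 2 h in all lines. In RelA(TA2) cells it had 12.5 and 10.6 FPKM at 0 h, 10.2 and 8.74 FPKM at 1 h, and 21.8 and 22.5 FPKM at 2 h. RelA(Ser276Ala) cells had 10.3 and 9.72 FPKM at 0 h, 6.43 and 6.07 FPKM at 1 h, and 17.0 and 19.9 FPKM at 2 h. In RelA(wt) cells it had 13.8 and 12.3 FPKM at 0 h, 9.32 and 9.22 FPKM at 1 h, and 20.8 and 24.1 FPKM at 2 h. In each line both 1 h libraries lay below both 0 h libraries, and both 2 h libraries above them.

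Clcf1 rose between 1 h and 2 h in every line, by 1.19 ± 0.12 in RelA(TA2) cells (limma, adjusted p = 5.17e-04), 1.49 in RelA(Ser276Ala) cells (1.44e-04) and 1.23 in RelA(wt) cells (3.18e-04). Its level at 2 h was above 0 h by 0.92 in RelA(TA2) cells (limma, adjusted p = 0.00262), 0.85 in RelA(Ser276Ala) cells (0.00928) and 0.76 in RelA(wt) cells (0.0104). The last of these missed the threshold without RelA(wt) 0 h replicate 2 (adjusted p = 0.0630) or 2 h replicate 2 (0.0674), and with the highest transcript alone (0.0553). On recovered fragments the RelA(Ser276Ala) rise from 0 h to 2 h was 0.35 (adjusted p = 0.385). Clcf1 was assembled as transcripts of 1514 to 7923 bases, so the same fragments give different FPKM from library to library. Exons of the gene held 8.95% to 49.4% of the bases of these transcripts. The other bases lie in its introns or beyond its annotated ends.

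At 1 h Clcf1 fell by 0.64 in RelA(Ser276Ala) cells against 0 h (difference -0.64, limma, adjusted p = 0.0278), the only fall of a member below 0 h that passed. It was lost when any of its 4 libraries was left out, with an adjusted p of 0.137 without RelA(Ser276Ala) 0 h replicate 1, 0.0782 without 0 h replicate 2, 0.0651 without 1 h replicate 1 and 0.119 without 1 h replicate 2. The 1 h differences in RelA(TA2) cells (-0.27, adjusted p = 0.393) and RelA(wt) cells (-0.47, adjusted p = 0.127) did not pass. On recovered fragments the RelA(wt) difference at 1 h was -1.11 (adjusted p = 0.0139, with 3.36% of all genes called lower) and the RelA(TA2) difference turned to 0.16 (adjusted p = 0.756). Between lines, Clcf1 at 1 h in RelA(Ser276Ala) cells was below the RelA(wt) level (-0.53, limma, adjusted p = 0.0466), and in RelA(TA2) cells it was above the RelA(Ser276Ala) level (0.56, adjusted p = 0.0376), the second a comparison added after the levels were seen. The first was -0.25 on recovered fragments (adjusted p = 0.480) and was lost in 14 of the 18 fits that left out a library (adjusted p of 0.0511 to 0.158) and with the replicate block (0.0620). The second was lost in 10 of those fits (0.0524 to 0.191) and with the block (0.0506). At 1 h the RelA(TA2) difference from RelA(wt) was 0.02 on FPKM (adjusted p = 0.991) and 0.77 on recovered fragments (0.0353, with 8.30% of all genes called higher). At 2 h the RelA(Ser276Ala) difference from RelA(wt) was -0.27 on FPKM (adjusted p = 0.282) and -0.99 on recovered fragments, where it passed (adjusted p = 0.00837), with 12.1% of all genes called lower on that scale. There, single-exon pieces of 2812 and 2814 bases held 664 and 625 RelA(Ser276Ala) fragments. Pieces of 5955 and 5960 bases held 1261 and 1577 RelA(wt) fragments. The 3-exon transcripts held 395 and 421 fragments in RelA(Ser276Ala) cells, against 487 and 549 in RelA(wt) cells. A further piece in RelA(Ser276Ala) 2 h replicate 1 (1999 bases, 4.85 FPKM) was not assigned to Clcf1. The part of piece length in this difference was not tested.

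**Figure D3:**
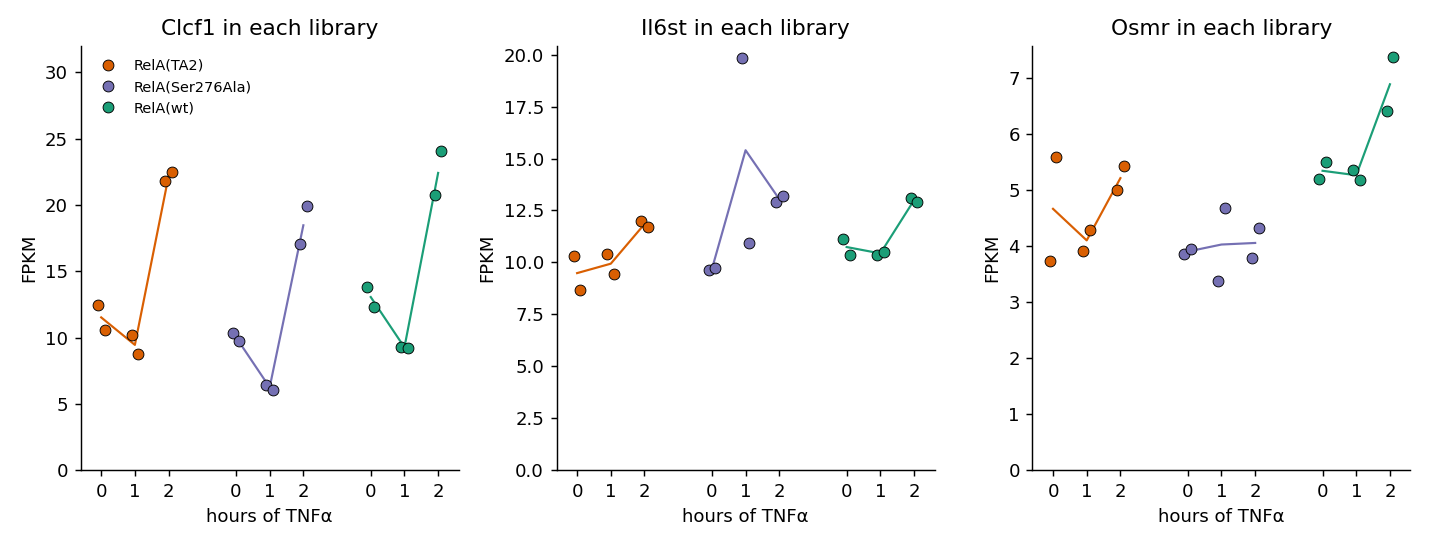
Clcf1, Il6st and Osmr in FPKM against hours of TNFα for the 3 lines, with 1 point per library and a line through the means. Clcf1 dips at 1 h and peaks at 2 h in each line, and the highest Il6st point is 1 RelA(Ser276Ala) library at 1 h at 19.9 FPKM.

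Il11 (chr7:4772378-4778141, minus strand), a cytokine that acts through its own receptor and gp130, was assembled only in pieces in most libraries. In RelA(TA2) cells it had 1.75 and 0 FPKM at 0 h, 0 and 1.15 FPKM at 1 h, and 3.62 and 3.98 FPKM at 2 h. RelA(Ser276Ala) cells had 2.87 and 1.83 FPKM at 0 h, 3.23 and 5.73 FPKM at 1 h, and 2.19 and 4.87 FPKM at 2 h. In RelA(wt) cells it had 17.5 and 61.1 FPKM at 0 h, 6.94 and 0 FPKM at 1 h, and 2.32 and 1.79 FPKM at 2 h. The 2 highest values, both in untreated RelA(wt) cells, rest on few fragments. The library at 61.1 FPKM held a single piece of 141 bases with 10 fragments, and in the library at 17.5 FPKM a piece of 202 bases gave 15.1 FPKM.

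Counted in fragments, Il11 was highest at 2 h in every line. There were 14 and 0 fragments at 0 h, 0 and 10 at 1 h, and 35 and 43 at 2 h in RelA(TA2) cells. RelA(Ser276Ala) cells had 31 and 14 fragments at 0 h, 32 and 40 at 1 h, and 109 and 85 at 2 h. RelA(wt) cells had 33 and 10 fragments at 0 h, 29 and 0 at 1 h, and 98 and 71 at 2 h. The 2 h libraries lay above the 0 h and 1 h libraries in each line.

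**Figure D4:**
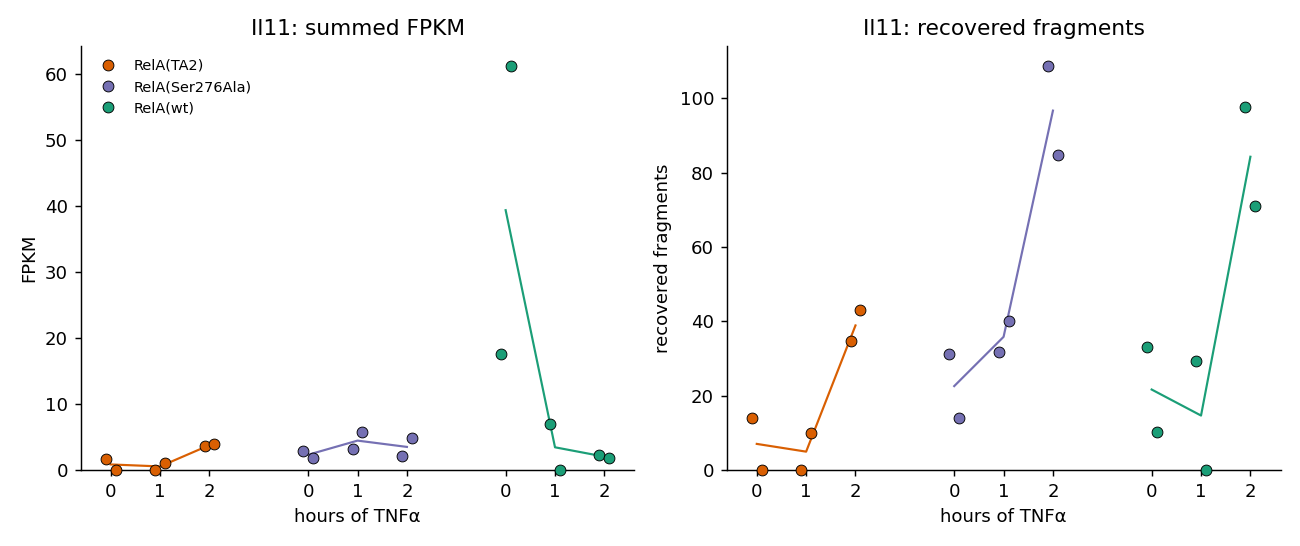
Il11 against hours of TNFα for the 3 lines, as summed FPKM (left) and as recovered fragments (right), with 1 point per library and a line through the means. The RelA(wt) points at 0 h lie at 17.5 and 61.1 FPKM on the left but at 33 and 10 fragments on the right, where the 2 h points are highest in each line.

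On recovered fragments the RelA(wt) rise from 1 h to 2 h was 2.27 (limma, adjusted p = 0.0155), where 10.3% of all genes rose on that scale. No difference from 0 h passed on either scale, and on fragments the adjusted p at 2 h was 0.0794 in RelA(TA2), 0.0852 in RelA(Ser276Ala) and 0.0836 in RelA(wt) cells. On FPKM, Il11 in untreated RelA(TA2) cells was called lower than in the RelA(wt) line (limma, adjusted p = 0.0445). On fragments the difference was -0.85 (adjusted p = 0.334), and on transcripts of at least 300 bases it was -0.20 (adjusted p = 0.984), an alternative added after the data had been seen. It was also lost with the replicate block (adjusted p = 0.0639) and in 15 of the 18 fits that left out a library (0.0545 to 0.214), among them those without RelA(wt) 0 h replicate 1 (0.0708), RelA(wt) 0 h replicate 2 (0.202) or RelA(TA2) 0 h replicate 2 (0.214).

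No comparison of the receptor chains among the members, Il6st, Osmr and Lifr, passed the test on FPKM. Il6st (chr13:112464070-112506860, plus strand), the shared gp130 chain, had between 8.68 and 19.9 FPKM in the 18 libraries (median 10.7) and rested on 1905 to 2916 fragments. Without the highest library, RelA(Ser276Ala) 1 h replicate 1, where the gene was assembled in 2 pieces whose FPKM add up, no library passed 13.2 FPKM, and that library's 2046 fragments lay within the range of the others. At 2 h Il6st had 12.0 and 11.7 FPKM in RelA(TA2) cells, 12.9 and 13.2 FPKM in RelA(Ser276Ala) cells, and 13.1 and 12.9 FPKM in RelA(wt) cells. Before TNFα it had 10.3 and 8.68 FPKM in RelA(TA2) cells, 9.63 and 9.72 FPKM in RelA(Ser276Ala) cells, and 11.1 and 10.3 FPKM in RelA(wt) cells. The 2 h libraries lay above the 0 h libraries in each line, by 0.31, 0.41 and 0.26 on the log2 scale in RelA(TA2), RelA(Ser276Ala) and RelA(wt) cells, and none of these passed on FPKM (adjusted p of 0.493, 0.476 and 0.677). On recovered fragments all 3 passed, at 0.33 (adjusted p = 0.00977), 0.44 (0.00645) and 0.30 (0.0309). On that scale 8.75%, 4.34% and 6.01% of all genes were called higher in the same comparisons.

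Osmr (chr15:6813577-6874313, minus strand), which joins gp130 in the oncostatin M receptor, had 5.00 and 5.42 FPKM at 2 h in RelA(TA2) cells, 3.79 and 4.33 FPKM in RelA(Ser276Ala) cells, and 6.40 and 7.37 FPKM in RelA(wt) cells. At 0 h it had 3.74 and 5.59 FPKM in RelA(TA2) cells, 3.86 and 3.95 FPKM in RelA(Ser276Ala) cells, and 5.19 and 5.50 FPKM in RelA(wt) cells. At 1 h the values lay between 3.38 and 4.67 FPKM in both mutant lines, against 5.36 and 5.17 FPKM in RelA(wt) cells. The RelA(Ser276Ala) libraries lay below the RelA(wt) libraries at each time. The difference at 2 h was -0.70 ± 0.19 on FPKM (limma, adjusted p = 0.0719) and -0.82 on recovered fragments, where it passed (adjusted p = 0.00632, with 12.1% of all genes called lower). It also passed with the replicate block (adjusted p = 0.0405) and without RelA(TA2) 0 h replicate 1 (0.0303) or replicate 2 (0.0307). The rise of Osmr at 2 h in RelA(wt) cells did not pass (0.34, adjusted p = 0.527).

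Lifr (chr15:7129572-7197489, plus strand), the chain that leukaemia inhibitory factor binds, is listed at 0 in 13 of 18 libraries, among them all 6 RelA(TA2) libraries. It had 0.799 and 1.25 FPKM at 0 h and 3.78 and 1.83 FPKM at 2 h in RelA(Ser276Ala) cells, and 3.72 FPKM in the second RelA(wt) library at 2 h. These values come from pieces of 338 to 716 bases with 10 to 21 fragments a library, and no comparison of Lifr passed on FPKM. On recovered fragments 2 passed, the rise from 1 h to 2 h in RelA(Ser276Ala) cells (limma, adjusted p = 0.0391, with 8.52% of all genes called higher) and the RelA(TA2) level at 2 h, lower than the RelA(Ser276Ala) level (adjusted p = 0.0319, with 12.2% called lower). Both set libraries of few fragments against libraries listed at 0.

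Within untreated RelA(wt) cells, levels per length of the 4 members assembled in every library ran from Clcf1 (13.8 and 12.3 FPKM) through Il6st (11.1 and 10.3) and Osmr (5.19 and 5.50) to Lif (2.78 and 2.99), and no neighbours in this order overlapped. At 1 h Lif was the highest of the 8 members in each library. Il23a at 1 h was above Il6st in RelA(wt) cells (17.5 and 15.2 against 10.4 and 10.5 FPKM), and below it in both mutant lines.

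Counted over the group, 2 of 8 members rose at 1 h and 4 at 2 h in RelA(TA2) cells, where 1.12% and 1.89% of all genes rose. In RelA(Ser276Ala) cells 2 rose and 1 fell at 1 h, and 3 rose at 2 h, where 0.938% rose and 0.558% fell at 1 h and 0.696% rose at 2 h. In RelA(wt) cells 2 rose at 1 h and 3 at 2 h, where 1.03% and 1.40% of all genes rose. Lif and Il23a rose at both times in every line and Clcf1 at 2 h in every line. The median log2 difference of the 8 at 1 h was 0.03 in RelA(TA2), 0.31 in RelA(Ser276Ala) and -0.01 in RelA(wt) cells, beside medians of -0.07, 0.00 and -0.01 over all genes tested. At 2 h it was 1.47 in RelA(TA2), 0.64 in RelA(Ser276Ala) and 0.89 in RelA(wt) cells, beside medians of -0.05, -0.04 and -0.04 over all genes tested. From 1 h to 2 h, 1 member rose in each line and 1 fell in RelA(wt) cells, with 1.54%, 1.08% and 2.25% of all genes rising in the RelA(TA2), RelA(Ser276Ala) and RelA(wt) lines and 1.97% falling in RelA(wt) cells.

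Against RelA(wt) cells, 1 member was lower in RelA(TA2) cells at each time and 1 higher at 2 h, where 1.40%, 1.68% and 1.71% of all genes were lower and 1.54% higher at 2 h. In RelA(Ser276Ala) cells 0, 3 and 1 members were lower at 0 h, 1 h and 2 h, where 1.01%, 1.47% and 1.83% of all genes were lower. At 0 h 2 of the 8 had an unadjusted p under 0.05, a threshold for which no share of all genes is given. On recovered fragments 0 passed at 0 h. In the comparison of RelA(TA2) with RelA(Ser276Ala) cells, 1 member was higher at 1 h and 2 at 2 h, where 1.42% and 1.84% of all genes were higher. On recovered fragments 4 were higher at 1 h, and 4 were higher and 1 lower at 2 h, where 9.13% and 10% of all genes were higher and 12.2% lower at 2 h. Among them was Il23a, at 0.85 (limma, adjusted p = 0.0275) at 1 h and 1.47 (0.00133) at 2 h, against 0.12 (0.955) and 0.67 (0.397) on FPKM. Over all members, recovered fragments gave 21 calls of 48 tests against 0 h, 10 of 48 against RelA(wt), 8 of 24 between 1 h and 2 h and 9 of 24 between the mutant lines, beside 17, 8, 4 and 3 on FPKM. These comparisons share their RelA(wt) or RelA(Ser276Ala) libraries. When only the libraries of a comparison were fitted, 4 of the 17 calls against 0 h and 1 of the 8 calls against RelA(wt) still passed. Those 4 were Lif at 1 h and Il23a at 1 h and 2 h in RelA(wt) cells and Il23a at 1 h in RelA(TA2) cells, and the 1 was Il23a in RelA(TA2) cells at 1 h.

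**Figure D5:**
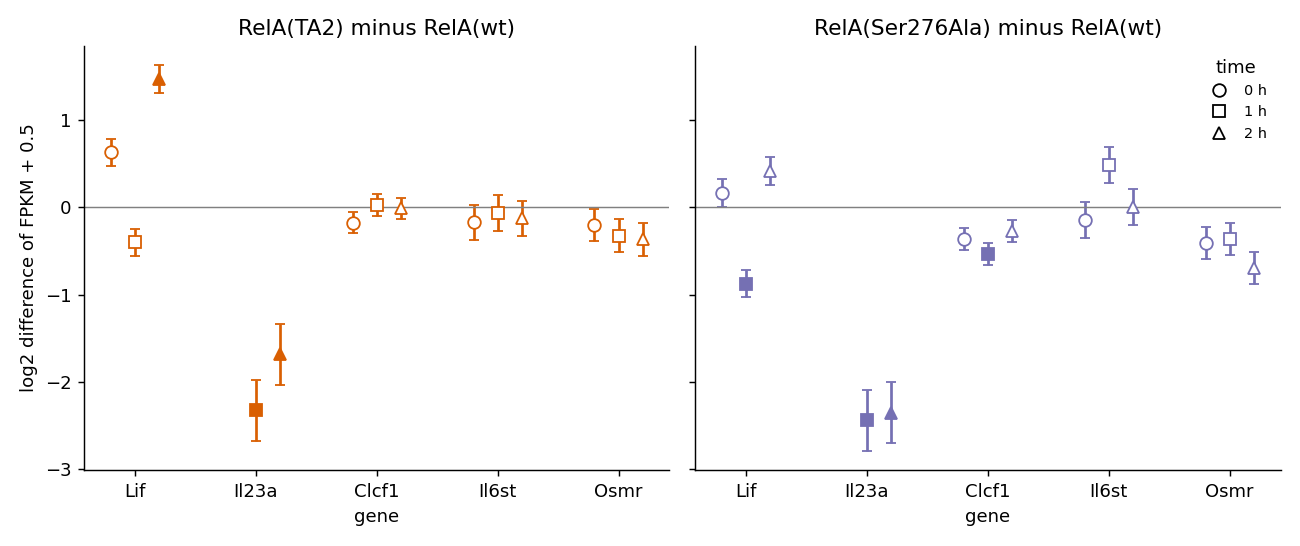
Difference of each mutant line from RelA(wt) on the log2(FPKM + 0.5) scale for 5 members at 0 h (circles), 1 h (squares) and 2 h (triangles), with bars of 1 SE and filled points where the limma adjusted p was under 0.05. Il23a at 0 h is left out because it is listed at 0 in every library, and Lif in RelA(TA2) cells stands at 1.47 at 2 h, above 0, while Il23a stands between -2.44 and -1.68.

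Whether the change from 0 h itself differed between a mutant line and RelA(wt) was tested for every member at both times. Of 32 such tests with limma, 0 passed after adjustment. After adjustment 0.340% and 0.226% of all genes passed for RelA(TA2) at 1 h and 2 h and 0.218% and 0.170% for RelA(Ser276Ala). Without adjustment, 13 of the 32 had a p under 0.05. The share of all genes at that threshold is not given, so the 13 cannot be set beside it. For Lif the change at 1 h differed from the RelA(wt) change by -1.03 in RelA(TA2) cells (adjusted p = 0.113) and by -1.04 in the RelA(Ser276Ala) line (adjusted p = 0.179). For Il23a the corresponding differences were -2.32 (adjusted p = 0.108) and -2.44 (adjusted p = 0.166) at 1 h and -1.68 (0.424) and -2.35 (0.163) at 2 h. Because Il23a is listed at 0 in every 0 h library, these equal its differences in level from RelA(wt) at the same times. Only the SE differs, so for Il23a this test gives no separate answer. On recovered fragments 4 of the 32 passed, where 1.63%, 0.315%, 0.235% and 0.275% of all genes passed in the same order. These were Lif in RelA(TA2) cells at 1 h (-1.06, adjusted p = 0.0336), Il23a in RelA(TA2) cells at 1 h (-2.53, 0.00518) and Il23a in the RelA(Ser276Ala) line at 1 h (-3.37, 5.09e-04) and 2 h (-3.30, 0.00106). Without RelA(Ser276Ala) 1 h replicate 2, 4 of the 32 passed on FPKM, and 2 without RelA(Ser276Ala) 1 h replicate 1.

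The rest of the pathway was read from lists chosen with earlier results of these data known. Among 10 further ligands and receptors of the family 6 were tested, and 1 fell at 1 h in RelA(wt) cells, where 0.574% of all genes fell. It was Il6ra, the binding chain for interleukin-6, with 3.62 and 3.90 FPKM at 1 h against 5.36 and 5.94 FPKM at 0 h (difference -0.53, limma, adjusted p = 0.0386). At 2 h Il6ra had 6.41 and 5.95 FPKM, a rise of 0.65 from 1 h (limma, adjusted p = 0.00742), where 2.25% of all genes rose. That rise missed the threshold with the highest transcript alone (limma, adjusted p = 0.652) and with only the compared libraries fitted (0.114). The fall of Il6ra missed the threshold under median-of-ratios scaling (adjusted p = 0.0555), with the replicate block (0.0607) and in 14 of the 18 fits that left out a library (0.0501 to 0.175). Osm, Il27 and Ebi3 are listed at 0 in all 18 libraries, while Il11ra1, the receptor of interleukin-11, had 8.25 to 26.2 FPKM. Among the 5 partners of interleukin-23, Il12b, which encodes the p40 chain that pairs with p19, is listed at 0 in all 18 libraries, as is Il12a. Il23r, its receptor chain, is listed at 0 in 15.

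None of the 10 JAK-STAT signalling genes passed at 1 h or 2 h in RelA(wt) cells by limma on FPKM, and their median log2 difference was 0.03 at 1 h and -0.02 at 2 h, beside -0.01 and -0.04 over all genes tested. Of these 10, 0 had an unadjusted p under 0.05 at either time, a threshold for which no share of all genes is given. On recovered fragments 2 rose at 1 h, where 3.35% of all genes rose, and 3 rose and 1 fell at 2 h, where 6.01% rose and 6.22% fell. Of the 7 feedback inhibitors 1 rose at 2 h in RelA(wt) cells, where 1.40% of all genes rose. At 1 h 0 passed, with 1 at an unadjusted p under 0.05, again without a share of all genes. The median of the 7 was 0.34 at 1 h and 0.59 at 2 h. On recovered fragments 1 fell at 1 h, where 3.36% of all genes fell, and 3 rose and 1 fell at 2 h, beside the same 6.01% and 6.22%. The gene that rose was Socs2, which had 5.43 and 2.85 FPKM at 2 h in RelA(wt) cells and is listed at 0 in both RelA(wt) libraries at 0 h (limma, adjusted p = 0.00232) and in all 6 RelA(Ser276Ala) libraries. The Socs2 rise did not pass when only the compared libraries were fitted (limma, adjusted p = 0.145). Socs3, the inhibitor known to bind gp130, ranged from 6.25 to 9.56 FPKM over the 18 libraries.

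Among 12 genes known to be raised by STAT3, 2 rose at 1 h and 4 at 2 h in RelA(wt) cells, where 1.03% and 1.40% of all genes rose. Their median log2 difference was 0.53 at 1 h and 0.60 at 2 h, beside -0.01 and -0.04 over all genes tested. On recovered fragments 6 rose at 1 h, where 3.35% of all genes rose, and 7 rose and 1 fell at 2 h, where 6.01% rose and 6.22% fell. Of the same 12 genes, 2 rose and 1 fell at 1 h and 3 rose at 2 h in RelA(TA2) cells, where 1.12% of all genes rose and 0.874% fell at 1 h and 1.89% rose at 2 h. In the RelA(Ser276Ala) line 2 rose at each time, where 0.938% and 0.696% of all genes rose. Several of them are also known targets of other pathways that TNFα activates. Junb, an AP-1 subunit, had 101 and 118 FPKM at 1 h against 17.9 and 19.8 FPKM at 0 h in RelA(wt) cells (rise of 2.50, limma, adjusted p = 5.99e-05). Myc, a growth-promoting transcription factor, had 91.0 and 78.4 FPKM at 1 h against 17.8 and 19.7 FPKM at 0 h (rise of 2.14, adjusted p = 4.87e-06). Cebpd, a transcription factor of the acute-phase response, had 55.2 and 43.9 FPKM at 2 h against 14.9 and 13.2 FPKM at 0 h (rise of 1.77, adjusted p = 0.00202). Saa3, an acute-phase protein, had 20.4 and 20.1 FPKM at 2 h against 4.61 and 7.43 FPKM at 0 h (rise of 1.71, adjusted p = 0.00711), and is listed at 0 in all 6 RelA(Ser276Ala) libraries.

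The genes most like each member that passed a comparison with 0 h were found by Pearson's r over the 9 condition means. They were sought among 5192 other genes whose means spanned at least 1 on the log2 scale. These correlations share their libraries and describe 9 points only. For Lif they were Fhl1 (r = 0.959), the neutrophil chemokine Cxcl1 (0.946) and Ier3 (0.944). For Il23a they were the chemokines Cxcl10 (0.951), Cxcl1 (0.934) and Ccl20 (0.929). For Clcf1 they were 2810474O19Rik (0.965), the circadian clock factor Arntl (0.958) and Phldb1 (0.957), and for Il6 they were Ms4a6c (0.943), the locus named Mir125b-1 (0.925) and Gm9897 (0.919). Il6 and its matches are all listed at 0 in untreated cells and in every RelA(Ser276Ala) condition, and the highest Gm9897 mean was 0.916 FPKM. Their r thus rests largely on where these genes were assembled at all. Il23a and its matches are likewise listed at 0 in untreated cells of every line.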

How the data were processed

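RNA-seq was read for 18 libraries of 3 lines at 3 times. Base calling by the authors used CASAVA 1.8.2, and reads were placed on mm10 by TopHat2 2.0.5 through Bowtie2 2.0.0.7. Cufflinks 2.0.2 then built transcripts separately per library, so the deposited FPKM belong to assembled transcripts and are already scaled for depth and length. The paper's Cuffdiff test was not rerun. A transcript was assigned to a gene of the merged assembly on the same strand if exons of that gene held 50% or more of its bases, or if it covered 50% or more of those exons. FPKM were summed per gene. Unassembled genes were given 0, as 1829 tested genes had in some library. In loci with a single assembled transcript, fragments were recovered from FPKM and confidence limits. Of these values below 500, 88.9% to 90.2% per library lay within 0.02 of a whole number. For transcripts of other loci, fragments were estimated as FPKM times a factor fitted to transcript length. These estimates, among them all Clcf1 values and most Lif values, were not checked in this way.

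Genes with at least 1 FPKM in 2 libraries were tested with limma 3.58.1 (R 4.3.3) on log2(FPKM + 0.5), with 1 mean per condition, a variance trend and 9 residual degrees of freedom. The two-sided p was adjusted by Benjamini and Hochberg over all genes within each comparison, threshold 0.05. The fit was also run on simulated data, whose outcome is not given here and supports no result above. Conditions in which both libraries list a gene at 0 add no spread to the pooled estimate, so p-values of such genes may be too small. Fold changes are on this scale and understate low genes. All members are named, as are up to 4 genes per pathway list that passed in RelA(wt) cells by smallest adjusted p and the 3 most alike genes. Il11ra1, Il23r, Socs3 and the pathway genes listed at 0 were named after their values were seen. Members and lists were chosen with earlier results of these data known.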

Additional observations from a re-analysis of the deposited data

Results flagged for a closer look

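Lif was the only member for which a difference between lines in a change over time passed the test on FPKM. From 1 h to 2 h its change in RelA(TA2) cells exceeded that in RelA(wt) cells by 1.87 ± 0.22 on the log2 scale (limma, adjusted p = 0.00422). In RelA(Ser276Ala) cells it exceeded that in RelA(wt) cells by 1.29 ± 0.22 (limma, adjusted p = 0.0474). The RelA(TA2) call missed the threshold with the highest transcript alone. The RelA(Ser276Ala) call missed it with the replicate block and in most fits that left out a library. Both comparisons were added after the levels had been seen. No test for a single outlying library was run, as each condition has 2 libraries.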

How the results depend on the processing

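Across 30 alternative settings and 71 results for single genes, 1925 values kept direction and side of the threshold, 154 fell short of it, 39 passed it newly and 6 changed sign. Fitting only the compared libraries left 4 of 17 calls against 0 h, 1 of 8 against RelA(wt), 0 of 4 between 1 h and 2 h, and gave 1 difference in response. Recovered fragments gave 8 calls between 1 h and 2 h and 4 differences in response, and the highest transcript alone gave 3 differences in response, beside 0 on summed FPKM. Leaving out each library in turn gave 5 to 9 calls against RelA(wt) (5 without RelA(TA2) 2 h replicate 1 or 2), 0 to 4 differences in response and 4 to 7 calls between 1 h and 2 h (7 without RelA(wt) 2 h replicate 1). The lone library left in a condition was then assumed to vary like the others. The sign changes were Il11 in RelA(wt) cells at 2 h against 0 h (1.69 on fragments and 1.07 on transcripts of at least 300 bases), Il11 at 2 h against 1 h (-1.55 to 2.35 over the libraries left out, the lowest without RelA(wt) 1 h replicate 2), and Clcf1 at 1 h against 0 h (0.0603 in RelA(wt) and 0.18 in RelA(TA2) cells with the highest transcript, 0.16 in RelA(TA2) cells on fragments). The cause was not tested. No scaling moved the median of all genes by more than 0.0717.

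Libraries with the same replicate number did not deviate together (r of -0.0739 to 0.0991 over 36 pairs of conditions), so the numbers were not taken as pairing. The replicate block gave 17, 7, 0 and 4 calls for the comparisons with 0 h, with RelA(wt), in response and between 1 h and 2 h. Requiring 80% of a transcript inside annotated exons set the median level of Clcf1 and of Il6st to 0. At 5 FPKM in 2 libraries no value could be had for 2 members, Il6 and Lifr. Il6, Lifr and Il11 before TNFα rest on at most 33 fragments a library and are limited by depth.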
